A study of Homo sapiens with 6 samples.

Results

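The IGF2 axis, followed here with 2 further imprinted growth genes, was examined as 9 genes chosen by name: IGF2, H19, CDKN1C, IGF1R, IGF2R, INSR, IGFBP2, IRS1 and IRS2. All 63 of their annotated transcripts were taken, out of 207167 transcripts of 63190 genes in the deposited table. The members were chosen by function and not by any measured value. Abundance is given as RPKM, reads per kilobase of transcript scaled to the size of the library, and a gene's level is the sum over its transcripts.

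The RNA came from HEK293T-Rex cells, a human embryonic kidney line that carries a tetracycline-inducible expression system, and was labelled as HEK293. In 3 libraries the cells overexpressed DIS3L2 carrying the D391N substitution, which inactivates the catalytic centre of this 3′ to 5′ exoribonuclease, from a stably integrated construct induced with doxycycline. The other 3 libraries came from control cells without the construct, and whether these received doxycycline is not given in the sources used here. The 2 cell lines differ in construct, in derivation and possibly in doxycycline, and these cannot be told apart. The study sequenced 3 libraries to a lane without naming them, so lane and group cannot be told apart either. The endogenous DIS3L2 gene was present in both lines, so the D391N cells model added inactive enzyme and not loss of the gene. Nothing in the labels says that the 3 libraries of a group came from separate cultures, so p-values measure the spread between these libraries, which may be technical.

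IGF2 is a fetal growth factor expressed mainly from the paternal allele, whereas the neighbouring H19 non-coding RNA and CDKN1C, an inhibitor of cyclin-dependent kinases, are expressed mainly from the maternal allele. IGF2 acts through the receptor tyrosine kinases IGF1R and INSR, which pass the signal to the adaptors IRS1 and IRS2, while IGF2R carries IGF2 to the lysosome and IGFBP2 holds IGFs in the extracellular fluid. Germline loss of DIS3L2 causes Perlman syndrome, a fetal overgrowth disorder with susceptibility to Wilms tumour, and IGF2 is one of the genes examined as a mediator of it.

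DIS3L2 itself, chr2:232825955-233209060 on the plus strand (all positions are GRCh37, joined by identifier), stood at 369, 467 and 512 RPKM in D391N libraries 1, 2 and 3. It stood at 11.8, 12.9 and 14.6 RPKM in control libraries 1, 2 and 3. The groups were far apart, as the labels imply, with a log2 fold change of 5.08 (SE 0.18, limma adjusted p = 0.000268), and reads of the construct count toward this sum. An estimate from the deposited values put the libraries between 20600000 and 34100000 reads. Replicates correlated at r = 0.885 to 0.935 within D391N and at 0.959 to 0.977 within control over 20714 genes, so the D391N libraries were the more scattered group. Of 9 HEK293 markers, 8 reached a mean of 1 RPKM, and their summed level over all 9 was 594 to 623 RPKM in D391N and 798 to 934 RPKM in control. Of the 8, 0 were called by limma and 3 had an unadjusted p under 0.05, against 22.7% of all genes tested. Without overlap, 4 were lower and 0 higher in D391N, against 20.7% and 10.5% of all genes. Most of that difference lay in the adaptor IRS4 and the intermediate filament genes KRT8 and VIM, and its part in the results on the members was not tested. The 7 fibroblast markers summed to 6.93 to 12.4 RPKM in D391N and 6.89 to 7.90 RPKM in control, the 6 blood markers to 5.37 to 7.75 and 6.98 to 10.6 RPKM, and the 5 hepatocyte markers to 1.74 to 2.50 and 1.49 to 2.19 RPKM. No marker of these 3 cell types was at an exact 0, because the authors' estimates are never 0.

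No member gene passed the test between D391N and control. Of the 9 genes, 7 averaged 1 RPKM or more across all 6 libraries and were tested, and 0 of 7 were called by limma at an adjusted p under 0.05. Over all 20714 genes tested, 29 were called (0.14%), 28 of them lower in D391N and 1, DIS3L2, higher. At an unadjusted p under 0.05 the count was 1 of 7 member genes, IGF2, against 22.7% of all genes. Every D391N library lay below every control library for 2 of the 7, IGF2 and IRS1, against 20.7% of all genes, and for 0 of the 7 did every D391N library lie above, against 10.5%. IGF2 and IRS1 both had a D391N mean under 1 RPKM and passed the filter through control, the group where they were higher, so nothing is read from their count. The log2 fold changes ran from -1.48 for IGF2 to 0.43 for IGF2R, with a median of -0.26 against -0.09 over all genes. H19 and CDKN1C were below the filter. In these bulk samples, fewer cells of a type and less RNA per cell cannot be told apart.

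**Figure D1:**
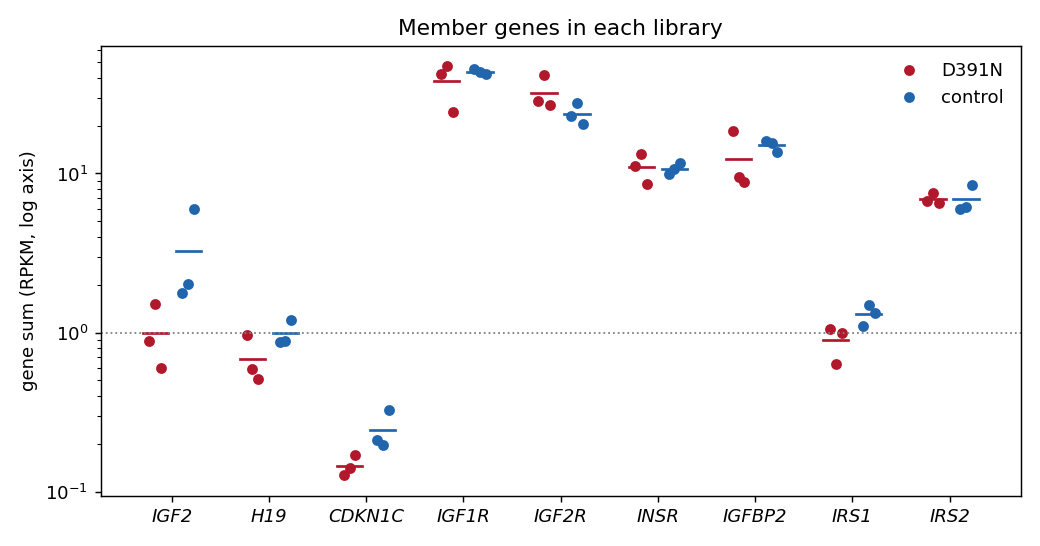
Gene sums of the 9 members in RPKM on a log axis, with one point per library, 3 libraries per group (red D391N, blue control), a bar at the group mean and a dotted line at 1 RPKM, the filter applied to the mean of all 6 libraries. IGF2 and IRS1 are the tested genes whose groups do not overlap, and H19 and CDKN1C lie under the filter.

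The members spanned a wide range of abundance in control cells, with IGF1R and IGF2R at the top and the maternally expressed H19 and CDKN1C at the bottom. IGF1R stood highest, at 43.8 ± 1.42 RPKM (SD, n = 3) in control, followed by IGF2R at 23.8 ± 3.62 RPKM, IGFBP2 at 15.1 ± 1.30 RPKM and INSR at 10.7 ± 0.901 RPKM. IRS2 came next at 6.86 ± 1.38 RPKM, then IGF2 at 3.26 ± 2.37 RPKM, IRS1 at 1.30 ± 0.188 RPKM, H19 at 0.986 ± 0.189 RPKM and CDKN1C at 0.245 ± 0.0722 RPKM. The order is one of gene sums, in which a short partial transcript counts as much as a full-length one. In control the full-length IGF2R transcript ENST00000356956 stood at 13.8 ± 1.37 RPKM. The most abundant IGF1R transcript, ENST00000560144 of 525 nt, stood at 8.96 ± 1.28 RPKM. Not every neighbour in this order was separated from the next. Over the 6 libraries the ranges of IGF1R and IGF2R overlapped, as did those of IGFBP2 and INSR, while the ranges of IGF2R and IGFBP2 and of INSR and IRS2 did not. IRS2, IGF2, IRS1 and H19 overlapped each with the next, and CDKN1C lay below H19 in every library without overlap.

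IGF2, the ligand of the axis, was lower in D391N cells in every library, with a difference that did not pass the test. The gene (ENSG00000167244, chr11:2150342-2179621, minus strand, 8 transcripts) stood at 0.882, 1.51 and 0.602 RPKM in D391N libraries 1, 2 and 3. It stood at 1.77, 2.03 and 5.99 RPKM in control libraries 1, 2 and 3. The groups did not overlap, and control 3 lay far above the other 2 controls. The D391N mean was 0.997 ± 0.463 RPKM (SD, n = 3) and the control mean 3.26 ± 2.37 RPKM. The log2 fold change was -1.48 (SE 0.54, 95% CI -2.76 to -0.20), with a limma adjusted p of 0.179, and the exact permutation test gave p = 0.1, two-sided, the smallest value that 3 libraries against 3 can give. Without control 3 the log2 fold change was -0.95 (adjusted p = 0.392). The mean of the D391N libraries was itself under 1 RPKM, so IGF2 entered the test through its level in control.

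The depth behind these IGF2 values was small. Over its transcripts of known length, the sums correspond to an estimated 80.4, 122 and 56.0 reads in the D391N libraries and 254, 300 and 621 reads in the controls. These are estimates from the posterior means, since the table holds no read counts, and counting error alone is small beside the spread among the controls.

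Most of the IGF2 level was assigned to 2 transcripts that share most of their sequence and differ mainly in the first exon. They made up 67.2, 78.4 and 68.4% of the gene sum in D391N and 85.7, 90.6 and 94.5% in control. The rest of the sum came from the 6 loosely estimated transcripts described below, so no shift between isoforms is read from these shares. ENST00000381395 begins with an exon of 103 nt at chr11:2158418-2158520, and ENST00000381406 with an exon of 746 nt at chr11:2159459-2160204. The third exon of the latter is also longer, at 158 nt against 149 nt. They have 4424 nt in common, 97.7% of the first transcript and 85.4% of the second, so most reads cannot be placed on one of them. ENST00000381395 stood at 0.396, 0.998 and 0.347 RPKM in D391N and at 0.875, 1.54 and 3.69 RPKM in control, where control 1 lay within the range of D391N. Its log2 fold change was -1.55 (SE 0.65, limma adjusted p = 0.282). ENST00000381406, not tested because its mean was under 1 RPKM, stood at 0.196, 0.182 and 0.0654 RPKM in D391N and at 0.641, 0.292 and 1.97 RPKM in control, without overlap. Their sum, a quantity added after the values were seen, was 0.593, 1.18 and 0.412 RPKM in D391N against 1.52, 1.84 and 5.66 RPKM in control, again without overlap (exact permutation p = 0.1). The posterior variance of ENST00000381406 was 0.892, 1.24 and 1.62 in D391N and 0.416, 0.700 and 0.110 in control. That of ENST00000381395 was 0.617, 0.26 and 0.494 against 0.264, 0.0379 and 0.0354. An exponential of the posterior log mean lies low where the posterior is wide, so nothing is read from the separation of the sum. For the other 6 IGF2 transcripts the posterior in every library was as wide as that of a transcript with 3 reads or fewer. The 4 transcripts of INS-IGF2, a readthrough gene that contains IGF2 exons, were empty in every library, with an estimated 0.5 reads.

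**Figure D2:**
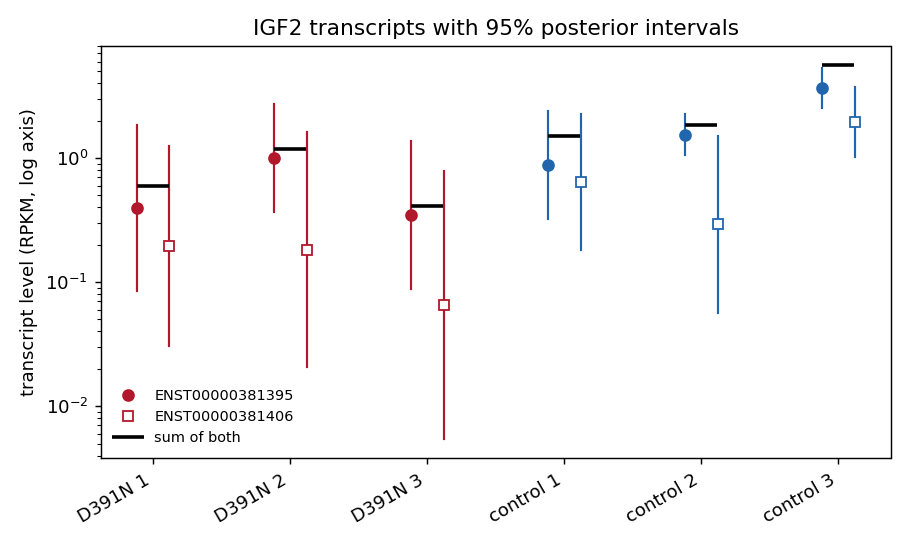
Levels of the 2 main IGF2 transcripts in RPKM on a log axis for each library, with 95% posterior intervals of the authors' estimate as vertical lines and the sum of both as a black bar (red D391N, blue control). The interval of ENST00000381395 in control 3 lies above those of D391N 1 and D391N 3, those of control 1 and control 2 overlap the D391N intervals for both transcripts, and the sums lie at 0.412 to 1.18 RPKM in D391N and at 1.52 to 5.66 RPKM in control.

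The genes whose levels ran most like IGF2 over the 6 libraries were GRID1, a glutamate receptor family member (Pearson r = 0.996 of log2 values), TLE2, a transcriptional corepressor (r = 0.996), and DNM2, a dynamin (r = 0.995). These are the closest of 20714 genes over 6 libraries, which share depth and group, and are given as a description.

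The 2 maternally expressed members were close to the limit of detection. H19 (ENSG00000130600, chr11:2016396-2025782, minus strand) stood at 0.959, 0.590 and 0.508 RPKM in D391N and at 0.867, 0.887 and 1.204 RPKM in control. D391N 1 lay above 2 of the 3 controls, so the groups overlapped (exact permutation p = 0.3). The sums correspond to an estimated 14.2 to 32.9 reads in D391N and 42.1 to 44.4 in control, spread over 13 annotated transcripts, of which 12 had a posterior as wide as that of a transcript with 3 reads or fewer in all 6 libraries. CDKN1C (ENSG00000129757, chr11:2904443-2907005, minus strand) stood at 0.127, 0.140 and 0.169 RPKM in D391N and at 0.210, 0.197 and 0.328 RPKM in control. The groups did not overlap (exact permutation p = 0.1), but the sums correspond to an estimated 1.5 to 3.2 reads in D391N and 6.9 to 8.6 reads in control, and all 5 transcripts had a posterior that wide in every library. No fold change is given for CDKN1C at this depth.

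IGF1R, the receptor that carries most IGF signalling, had the highest gene sum of the members and showed no difference beyond the spread of the libraries. The gene (ENSG00000140443, chr15:99191768-99507759, plus strand, 17 transcripts) stood at 42.3, 47.2 and 24.4 RPKM in D391N and at 45.2, 43.7 and 42.4 RPKM in control. D391N 3 lay far below the other libraries, D391N 2 lay above all controls, and the groups overlapped. The log2 fold change was -0.26 (SE 0.26, 95% CI -0.87 to 0.35, limma adjusted p = 0.580).

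Most of the summed IGF1R level came from short partial transcripts, which per kilobase weigh more than the full-length ones. ENST00000560144, of 525 nt and annotated as subject to nonsense-mediated decay, took 20.3, 22.8 and 36.3% of the gene sum in D391N and 17.5, 23.8 and 20.2% in control, with overlapping groups (exact permutation p = 0.4). Its own level overlapped too, at 8.58, 10.7 and 8.84 RPKM in D391N and 7.91, 10.4 and 8.58 RPKM in control. ENST00000560972, of 310 nt, was high in one library alone, at 5.77, 19.7 and 2.06 RPKM in D391N against 7.001, 7.501 and 7.32 RPKM in control. Of the other transcripts tested, 2 were lower in every D391N library: ENST00000558898 at 0.538, 0.714 and 0.675 RPKM against 2.47, 1.08 and 2.97 RPKM (log2 fold change -1.51, limma adjusted p = 0.199), and ENST00000558751 at 0.567, 1.21 and 0.339 RPKM against 1.37, 1.26 and 1.69 RPKM (-1.08, adjusted p = 0.323). Both had a D391N mean under 1 RPKM and entered the test through control. ENST00000557873, of 583 nt and too low to be tested, was also lower in every D391N library, at 0.260, 0.180 and 0.272 RPKM against 0.526, 0.345 and 0.529 RPKM. Its posterior was that wide in 4 of 6 libraries.

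The 2 transcripts ENST00000268035 and ENST00000558762 traded level with each other from library to library. ENST00000268035 stood at 2.18, 0.572 and 5.87 RPKM in D391N and at 3.20, 0.316 and 3.44 RPKM in control. ENST00000558762 stood at 4.41, 7.35 and 1.07 RPKM in D391N and at 5.15, 8.55 and 5.87 RPKM in control. Where one was low the other was high, in D391N 2 and control 2 one way and in D391N 3 the other way. Their sum, also added after the values were seen, was much steadier, at 6.58, 7.93 and 6.94 RPKM in D391N and 8.35, 8.87 and 9.31 RPKM in control. The sums did not overlap, at 7.15 ± 0.695 against 8.84 ± 0.482 RPKM (SD, n = 3), a log2 fold change of -0.31 with an exact permutation p of 0.1. Both terms were loosely estimated. The posterior was as wide as that of a transcript with 3 reads or fewer in 4 of 6 libraries for ENST00000268035. For ENST00000558762 it was that wide in 2 of 6. An exponential of the posterior log mean lies low where the posterior is wide, and another posterior summary was not applied to these sums. Nothing is therefore read from their separation.

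**Figure D3:**
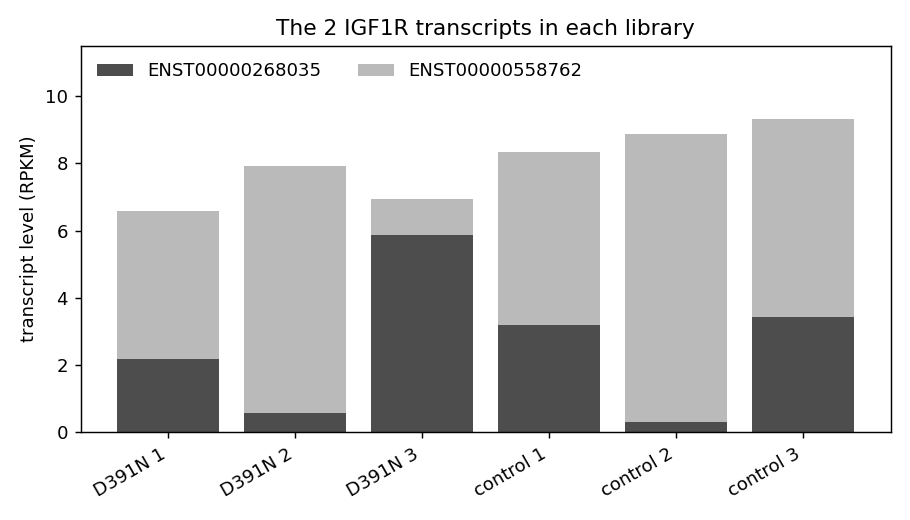
Levels in RPKM of IGF1R transcripts ENST00000268035 (dark) and ENST00000558762 (light), stacked for each of the 6 libraries. The split between them changes from library to library within a group, while the total runs from 6.58 to 7.93 RPKM in D391N and from 8.35 to 9.31 RPKM in control.

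IGF2R, which removes IGF2 from the cell surface, lay on the other side of control, with a difference that did not pass the test. The gene (ENSG00000197081, chr6:160390114-160534539, plus strand, 5 transcripts) stood at 28.6, 41.3 and 26.9 RPKM in D391N and at 23.0, 27.7 and 20.6 RPKM in control. D391N 3 lay below control 2, so the groups overlapped. The log2 fold change was 0.43 (SE 0.21, 95% CI -0.08 to 0.93, limma adjusted p = 0.279). The groups no longer overlapped once all libraries were set to the same median (0.64, adjusted p = 0.152) or the same distribution (0.46, adjusted p = 0.230), and without D391N 2 the value was 0.23 (adjusted p = 0.465). The full-length transcript ENST00000356956, of 14061 nt in 48 exons, was estimated from 4023 to 7316 reads per library and stood at 16.3, 19.1 and 17.8 RPKM in D391N against 13.4, 15.3 and 12.7 RPKM in control. Here the groups did not overlap, with a log2 fold change of 0.36 (SE 0.22, 95% CI -0.16 to 0.88), and the limma adjusted p was 0.420. Its share of the gene sum was 56.9, 46.1 and 65.9% in D391N and 58.1, 55.3 and 61.6% in control, with overlap (exact permutation p = 0.8). Part of the gene-sum difference lay in other transcripts, whose groups overlapped. ENST00000464636, of unknown length, stood at 9.31, 12.4 and 3.11 RPKM in D391N and 4.40, 7.48 and 2.90 RPKM in control (log2 fold change 0.63, limma adjusted p = 0.598). ENST00000475584, of 597 nt, stood at 0.623, 5.32 and 0.623 RPKM against 2.24, 0.755 and 1.63 RPKM.

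INSR, the insulin receptor, is spliced into a form without exon 11, which binds IGF2 as well as insulin with high affinity, and a form with exon 11, which is selective for insulin. The exon has 36 nt and lies at chr19:7150508-7150543 on the minus strand. The stretch around it is shown because the exon is what distinguishes the forms, with 24 nt of flanking exon on each side in lower case and exon 11 in capitals, read 5′ to 3′ from the GENCODE transcripts:
INSR with exon 11 (ENST00000302850): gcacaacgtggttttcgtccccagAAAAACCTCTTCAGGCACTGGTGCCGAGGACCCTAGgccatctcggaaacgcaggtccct
INSR without exon 11 (ENST00000341500): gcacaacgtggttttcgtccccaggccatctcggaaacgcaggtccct

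The summed INSR level overlapped between the groups. The gene (ENSG00000171105, chr19:7112266-7294425, minus strand, 7 transcripts) stood at 11.2, 13.2 and 8.59 RPKM in D391N and at 9.87, 10.7 and 11.7 RPKM in control. The D391N libraries surrounded the controls, and the log2 fold change was 0.02 (SE 0.20, 95% CI -0.45 to 0.48, limma adjusted p = 0.973). ENST00000600492, a partial transcript of 653 nt, added to this scatter at 2.83, 5.50 and 0.178 RPKM in D391N against 0.693, 0.843 and 0.493 RPKM in control.

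The split between the full-length INSR transcripts does not rest on exon 11 alone, as given below. The form without exon 11 was assigned nearly all of their level in both lines. It stood at 5.76, 5.70 and 6.68 RPKM in D391N and at 6.498, 6.99 and 8.04 RPKM in control, with overlap and a log2 fold change of -0.24 (SE 0.23, limma adjusted p = 0.606). The form with exon 11 stood at 0.104, 0.157 and 0.102 RPKM in D391N and at 0.230, 0.513 and 0.599 RPKM in control, and was not tested because its mean was under 1 RPKM. Every D391N library lay below every control.

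The share of the exon 11 form among both forms was therefore 1.78, 2.67 and 1.504% in D391N and 3.42, 6.83 and 6.93% in control. These shares did not overlap, at 1.99 ± 0.609% against 5.73 ± 2.001% (SD, n = 3), a difference of -3.74 percentage points, and the exact permutation test gave the smallest p that this design allows, 0.1. The estimate for single libraries was loose, and more so in D391N. The posterior variance of the exon 11 form was 0.328, 0.249 and 0.664 in D391N and 0.233, 0.056 and 0.0859 in control. An exponential of the posterior log mean lies low where the posterior is wide, which lowers the D391N shares more than those of control. The 95% posterior interval of the exon 11 form ran from 0.0340 to 0.321 RPKM in D391N 1 and from 0.0893 to 0.592 RPKM in control 1, and those of all 3 D391N libraries overlapped that of control 1. The intervals of D391N 2 and D391N 3 also overlapped those of control 2 and control 3, and that of D391N 1 ended just below both. The annotated forms also differ by 483 nt in the length of the first exon, so reads at the 5′ end enter the split between them beside reads across exon 11.

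**Figure D4:**
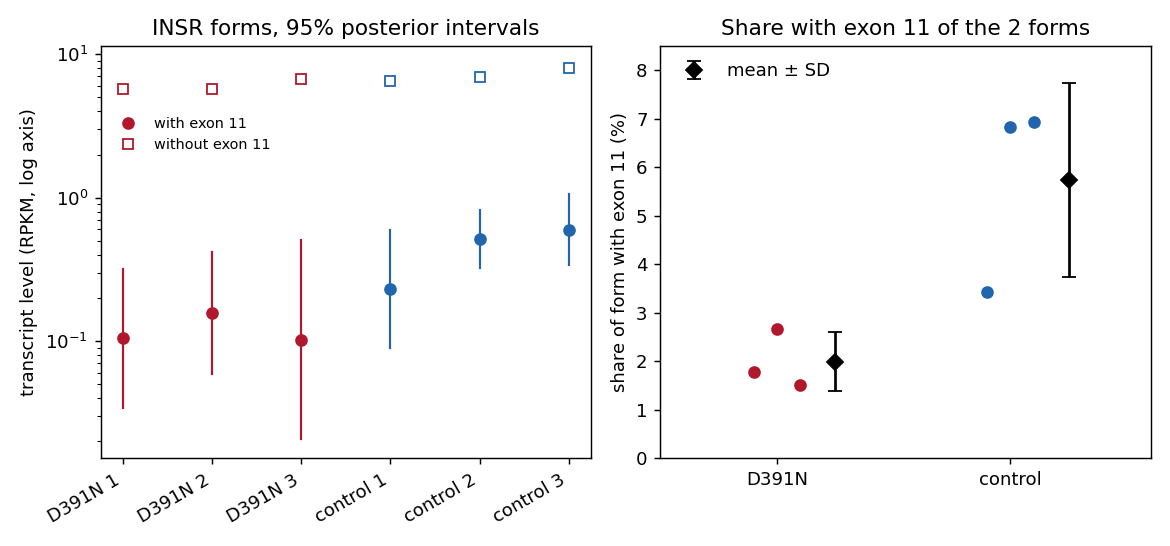
Left, levels of the INSR forms with and without exon 11 in RPKM on a log axis for each library, with 95% posterior intervals as vertical lines. Right, the share of the form with exon 11 in percent for each library with the mean ± SD of 3 libraries (black), at 1.504 to 2.67% in D391N and 3.42 to 6.93% in control.

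IGFBP2, a secreted IGF-binding protein, was scattered in D391N and tight in control. The gene (ENSG00000115457, chr2:217497551-217529159, plus strand, 5 transcripts) stood at 18.5, 9.54 and 8.78 RPKM in D391N and at 16.1, 15.51 and 13.6 RPKM in control. D391N 1 lay above all controls and the other 2 D391N libraries below them. The log2 fold change was -0.37 (SE 0.29, 95% CI -1.07 to 0.32, limma adjusted p = 0.480), and without D391N 1 it was -0.71 with an adjusted p of 0.0453, past the threshold. In that same comparison without D391N 1, 2267 of all genes were called, against 29 with it.

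The full-length IGFBP2 transcript ENST00000233809, of 1414 nt in 4 exons, followed the gene, at 10.5, 5.86 and 5.77 RPKM in D391N and 10.5, 10.5 and 10.9 RPKM in control (log2 fold change -0.57, limma adjusted p = 0.361). A pair of shorter transcripts that start inside the gene lay on opposite sides of control. ENST00000456764 was lower in every D391N library, at 0.611, 1.12 and 0.694 RPKM against 3.38, 3.65 and 1.28 RPKM (log2 fold change -1.57, SE 0.49, adjusted p = 0.203). ENST00000436812 was higher in every D391N library, at 6.66, 1.71 and 1.91 RPKM against 1.54, 0.625 and 0.664 RPKM (1.59, SE 0.62, adjusted p = 0.259). Both were loosely estimated: the posterior was as wide as that of a transcript with 3 reads or fewer in 4 of 6 libraries for ENST00000456764 and in 5 of 6 for ENST00000436812, whose 95% interval in D391N 2 ran from 0.293 to 10.01 RPKM. They have 541 nt in common, 63.9% and 72.0% of their lengths, and their sum, added after the values were seen, overlapped between the groups (exact permutation p = 1).

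The adaptors among the members, IRS1 and IRS2, had lower gene sums than the receptors, unlike the adaptor IRS4 described below. IRS2 lay close to the main INSR transcript ENST00000341500, at 6.90 against 6.05 RPKM in D391N and 6.86 against 7.18 RPKM in control. IRS1 (ENSG00000169047, chr2:227596028-227664536, minus strand, 2 transcripts) stood at 1.05, 0.636 and 0.991 RPKM in D391N and at 1.11, 1.48 and 1.32 RPKM in control. Every D391N library lay below every control, D391N 1 by little, and the log2 fold change was -0.52 (SE 0.31, 95% CI -1.26 to 0.22, limma adjusted p = 0.356). The D391N mean, 0.892 ± 0.224 RPKM, was under 1 RPKM, so IRS1 too entered the test through control. The groups overlapped once all libraries were set to the same median or the same distribution. The coding transcript ENST00000305123 stood at 0.590, 0.580 and 0.776 RPKM in D391N and 0.812, 0.798 and 0.778 RPKM in control, with D391N 3 next to control 3. Its log2 fold change was -0.27, smaller than that of the gene sum. The rest of the sum was ENST00000498335, of 506 nt, at 0.460, 0.0556 and 0.215 RPKM in D391N and 0.294, 0.682 and 0.544 RPKM in control, with overlap. Its posterior was as wide as that of a transcript with 3 reads or fewer in 5 of 6 libraries. IRS2 (ENSG00000185950, chr13:110405042-110438930, minus strand, 1 transcript) stood at 6.68, 7.51 and 6.51 RPKM in D391N and at 5.98, 6.16 and 8.45 RPKM in control. These groups overlapped, and with one transcript and an estimated 1251 to 1702 reads the value was among the best measured of the members. The log2 fold change was 0.02 (SE 0.19, 95% CI -0.43 to 0.48, limma adjusted p = 0.960).

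**Figure D5:**
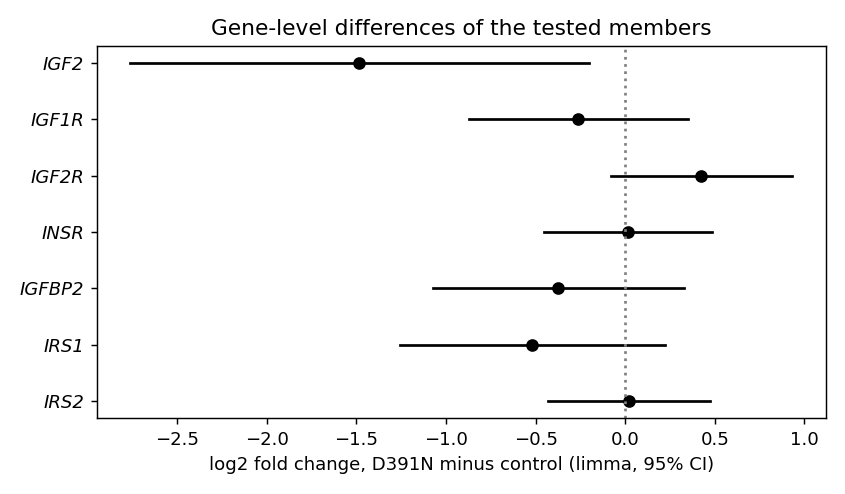
Log2 fold change of the 7 tested member genes, D391N minus control, with the 95% confidence interval from limma (3 libraries per group). The interval of IGF2, from -2.76 to -0.20, is the widest and the one that does not include 0, before adjustment over all genes.

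Of the members' transcripts, 21 of 63 had a mean of at least 1 RPKM, and 0 of 21 were called by limma, against 0.0604% of 54671 transcripts. At an unadjusted p under 0.05 the count was 4 of 21, against 17.6% of all transcripts. The groups did not overlap for 3 lower and 2 higher transcripts, against 15.6% and 10.1% of all. In 4 of these 5 the mean of the lower group was under 1 RPKM, so that they passed the filter through the higher group, and nothing is read from the count; the exception was the full-length IGF2R transcript.

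Other genes of the pathway and of imprinted regions were counted by list, to be read against all 20714 genes tested, of which 20.7% were lower and 10.5% higher without overlap, 22.7% had an unadjusted p under 0.05, and the median log2 fold change was -0.09. With all libraries set to the same median, the shares without overlap were 11.51% lower and 21.2% higher. Of 15 IGF ligands, binding proteins and their proteases, 6 were tested and 0 were called by limma (3 at an unadjusted p under 0.05). Of these 6, 3 had non-overlapping groups, all lower (20.7% of all genes) and one of them IGF2, and the median log2 fold change was -0.87. The most abundant were STC2, a stanniocalcin that inhibits the proteases of IGF-binding proteins, at 14.3 ± 1.47 RPKM in D391N and 25.3 ± 6.31 RPKM in control (log2 fold change -0.80, limma adjusted p = 0.113), IGFBP2, and the binding protein IGFBP5 at 6.56 ± 1.30 and 14.1 ± 4.94 RPKM (-1.05, adjusted p = 0.123; SD, n = 3). IGF1 and INS, the other ligands of the receptors, had means under 1 RPKM in both groups.

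Of 47 receptor, adaptor and signalling genes, 46 were tested and 0 were called (11 at an unadjusted p under 0.05), with 13 lower and 2 higher without overlap (20.7% and 10.5% of all genes) and a median log2 fold change of -0.01. IRS4, the adaptor that dominates in HEK293 cells, stood at 265, 264 and 245 RPKM in D391N and at 347, 334 and 420 RPKM in control, far above IRS1 and IRS2 in every library. Its groups did not overlap, and its log2 fold change was -0.50 (SE 0.18, limma adjusted p = 0.171). The phosphatase PTPN11, at 153 ± 25.8 and 135 ± 7.20 RPKM, and EIF4EBP1, a translation repressor under control of mTOR, at 99.0 ± 37.6 and 110 ± 25.9 RPKM, overlapped between groups. The smallest adjusted p in this list, picked after the values were seen, belonged to the ERK kinase MAPK3, at 12.9 ± 0.857 against 25.3 ± 2.71 RPKM (log2 fold change -0.96, adjusted p = 0.0609).

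Of 14 regulators of IGF2 RNA and of IGF2 transcription, 10 were tested and 0 were called (4 at an unadjusted p under 0.05), with 4 higher and 2 lower without overlap (10.5% and 20.7% of all genes) and a median of 0.16. ELAVL1, an RNA-stabilizing protein, stood at 95.01 ± 27.2 RPKM in D391N and 39.5 ± 3.62 RPKM in control (log2 fold change 1.23, limma adjusted p = 0.0813). IGF2BP1, which binds IGF2 mRNA, stood at 77.3 ± 6.43 and 91.8 ± 2.97 RPKM (-0.25, adjusted p = 0.318), and the chromatin protein HMGA1 at 96.6 ± 9.89 and 145 ± 25.1 RPKM (-0.57, adjusted p = 0.153).

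Of 24 genes of the imprinted region that holds IGF2, H19 and CDKN1C, 8 were tested and 0 were called (2 at an unadjusted p under 0.05), with 0 higher and 2 lower without overlap (10.5% and 20.7% of all genes), one of them IGF2, and a median of -0.0043. Its most abundant genes, NAP1L4 at 229 ± 58.0 and 179 ± 5.82 RPKM, MRPL23 at 46.7 ± 10.6 and 41.0 ± 5.24 RPKM, and CD81 at 10.8 ± 0.673 and 11.6 ± 1.79 RPKM in D391N and control, overlapped between groups. Of 31 imprinted genes elsewhere, 13 were tested and 0 were called (3 at an unadjusted p under 0.05), with 1 higher and 2 lower without overlap (10.5% and 20.7% of all genes) and a median of 0.02. GNAS stood at 138 ± 29.1 and 185 ± 16.8 RPKM, PEG10 at 109 ± 14.5 and 106 ± 6.34 RPKM, both with overlap, and UBE3A at 76.2 ± 16.8 and 48.2 ± 0.890 RPKM without (log2 fold change 0.64, limma adjusted p = 0.138). Of 19 overgrowth and Wilms tumour genes, 18 were tested and 1 was called, DIS3L2 itself (4 at an unadjusted p under 0.05). Without overlap, 5 were higher and 2 lower (10.5% and 20.7% of all genes), and the median was 0.14. DIS3L2, whose sum holds reads of the construct, is among the 4 and among the 5. Of this list, the microRNA processing gene DROSHA stood at 170 ± 33.5 and 134 ± 7.999 RPKM, with overlap, and TRIM28, a silencing cofactor, at 110 ± 6.18 and 149 ± 22.6 RPKM (-0.43, adjusted p = 0.202).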

How the data were processed

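Total RNA was depleted of rRNA and sequenced as single-end reads by the authors, who mapped the reads to Ensembl transcripts of human genome hg38 and estimated transcript abundance with BitSeq. The deposited table holds the mean and variance of the posterior on a natural log scale of RPKM for each transcript and library; exponentials of the means were used as RPKM and summed by gene. Reads shared between isoforms are split by the model, so single transcripts are less certain than gene sums. Symbols matched 88.2% of gene identifiers and lengths 90.2% of transcripts (GENCODE 44 on GRCh37), and positions are of that annotation, since the table holds none. Depth was estimated from transcripts without reads (20600000 to 34100000) and from the posterior variance of single-transcript genes (19900000 to 33200000); intervals cover the authors' model only.

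Groups came from the labels, 3 libraries each. Log2(RPKM + 0.1) was fitted with limma 3.58.1 (R 4.3.3), with trend, over all features with a mean of at least 1 RPKM, with Benjamini-Hochberg adjustment over all of them and a threshold of 0.05. Fold changes are on that scale, which understates the change of low genes. Single values and shares used two-sided exact permutation tests. On simulated data for the gene comparison of 20714 genes, 67% of genes changed by 3 on the log2 scale and 8% of those changed by 1 were called, with 4 false calls. The simulation drew independent errors with the same spread in both groups. The real D391N libraries were more scattered than control, so these rates need not hold for the data. Alternatives were other pseudocounts, filters, scalings, no trend, a replicate block, a different posterior summary and each library left out. The genes named were DIS3L2, the members with their transcripts of at least 1 RPKM, INS-IGF2, the 3 most abundant genes of each list with any that were called, and the 3 genes most like IGF2; others are marked in the text. The members, lists and tests were chosen with earlier results of these data known. BitSeq's own test was not repeated here.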

Additional observations from a re-analysis of the deposited data

How the results depend on the processing

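The count of called member genes was 0 under every alternative that kept all libraries and ran from 0 to 1 with one library left out, the 1 being IGFBP2 without D391N replicate 1. The count of called member transcripts was likewise 0, and from 0 to 2 with one library left out, the 2 being IGF1R transcripts ENST00000561049 (log2 fold change -1.61, limma adjusted p = 0.0236) and ENST00000559582 (-2.15, adjusted p = 0.0312) without D391N replicate 1. The cause was not tested. IGF2 kept its direction throughout, at -1.80 to -0.95, with adjusted p from 0.178 to 0.392, and its groups overlapped only where the sum was limited to transcripts of at least 1 RPKM. Several small differences changed sign when one library was left out: IGF1R ran from -0.45 to 0.030, INSR from -0.13 to 0.18, IRS2 and its single transcript from -0.067 to 0.18, the IGF1R transcripts ENST00000560144 from -0.031 to 0.18, ENST00000560972 from -1.05 to 0.55 and ENST00000268035 from -0.71 to 1.12, and the IGF2R transcript ENST00000475584 from -1.06 to 0.39. The last went from -0.096 to 0.052 with a pseudocount of 1 and to 0.067 with quantile normalization. The share of ENST00000356956 in the IGF2R sum, which differed by -2.04 percentage points, ran from -6.84 to 3.07. Over all genes the 29 calls became 2 to 61 under other settings, and 2 to 2267 with one library left out; the replicate block gave 2. Median centring moved the median of all genes by 0.22 and quantile normalization by 0.17 on the log2 scale, which turned the shares of genes lower and higher without overlap from 20.7% and 10.5% into 11.51% and 21.2%, and 13.3% and 17.97%. With the replicate block 0 member genes were called. Once the group mean of each gene was subtracted, the deviations of same-numbered D391N and control libraries correlated at 0.07, 0.22 and -0.11. The numbers were therefore not taken to pair the libraries. Depth limits H19, CDKN1C and the INSR form with exon 11.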
